A study of Arabidopsis thaliana with 28 samples.

Results

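The 10 genes described here encode NAC transcription factors of Arabidopsis thaliana that are known for roles in stress and leaf senescence. They were chosen by locus identifier and are ANAC019 (AT1G52890), ANAC055 (AT3G15500), RD26 (AT4G27410), ATAF1 (AT1G01720), ATAF2 (AT5G08790), ANAC032 (AT1G77450), ANAC102 (AT5G63790), NAP (AT1G69490), VNI2 (AT5G13180) and ORE1 (AT5G39610). All 10 were found among the 33557 entries of the deposited table, beside 105 other genes whose annotation names a NAC domain. RNA was sequenced from wild-type seedlings of the ecotype Col-0 that had been given abscisic acid (ABA), or ethanol (EtOH) as the mock, for 0.5, 1, 3, 6, 9, 12 or 24 h. Each of the 14 groups had 2 libraries, and the authors deposited 1 value per gene and group made from both, called a pool here. A pool therefore carries no replicate error, and the labels do not say whether both libraries of a group came from separate cultures. Neither the dose of ABA nor the seedlings' age is given in the sources used.

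NAC proteins bind DNA through a conserved domain at their amino end and activate or repress transcription through a variable part at the other end. ABA is the hormone of drought and salt responses and also hastens leaf senescence, and NAC factors are among the genes that its signalling turns on. RD26, ANAC019 and ANAC055 are close relatives that act in drought and jasmonate responses, while ATAF1, ATAF2, ANAC032 and ANAC102 form a second group of close relatives. NAP and ORE1 promote leaf senescence, and VNI2 has been described as a repressor in vessel formation and as a factor that delays leaf ageing.

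Values are FPKM, fragments scaled to transcript length and library depth, a unit that was inferred from the deposited values and that allows levels of genes of different length to be set side by side. Differences are given on the scale of log2(FPKM + 1), ABA minus mock, a scale that shrinks the differences of genes with low levels. The pools held an implied 33600000 to 49100000 fragments each and between 18634 and 18930 genes with at least 1 FPKM. RNA came from whole seedlings, so fewer cells of a type and less RNA per cell cannot be told apart in any result below. The 3 root markers (PHT1;1, IRT1 and NRT2.1) summed to 14.8 to 90.6 FPKM in ABA pools and to 41.5 to 186 FPKM in mock pools. The 3 seed markers (CRA1, SESA1 and OLEO1) summed to 22.0 to 62.7 FPKM in ABA pools and to 2.87 to 16.4 FPKM in mock pools, and 1 of them was listed at 0 in some mock pool. The 3 shoot markers (RBCS1A, LHCB1.1 and RCA) summed to 13583 to 34578 FPKM in ABA pools and to 15623 to 36075 FPKM in mock pools. On the averaged ABA effect described below, 2 of the 3 root markers were lower, all 3 seed markers were higher and no shoot marker was called. Of all genes tested, 23.9% were higher and 23.2% were lower. By the authors' own calls at single times, described below, LHCB1.1 and RCA were lower at 3, 6 and 9 h. RCA was called higher at 12 h and RBCS1A at 24 h. The part of these marker differences in the levels of the NAC genes was not tested.

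The promoters of 6 of the genes are shown first, the 5 that hold the motif described here and ATAF2, the gene lower after ABA. The motif was chosen because ABA acts on many genes through bZIP factors that bind the ABA-responsive element, whose core is ACGTG. Each is the stretch of 250 bases before the annotated gene start, read 5′ to 3′ on the strand of the gene from the RefSeq TAIR10.1 genome. The positions are chr4:13709171-13709420 for RD26 (minus strand), chr1:19698483-19698732 for ANAC019 (minus strand), chr1:29099589-29099838 for ANAC032 (plus strand), chr1:26121830-26122079 for NAP (plus strand), chr5:4196006-4196255 for VNI2 (plus strand) and chr5:2860559-2860808 for ATAF2 (minus strand). Capitals mark every match to ACGTG on either strand, so that a palindromic CACGTG, the G-box, counts as a match on each strand.
RD26 promoter: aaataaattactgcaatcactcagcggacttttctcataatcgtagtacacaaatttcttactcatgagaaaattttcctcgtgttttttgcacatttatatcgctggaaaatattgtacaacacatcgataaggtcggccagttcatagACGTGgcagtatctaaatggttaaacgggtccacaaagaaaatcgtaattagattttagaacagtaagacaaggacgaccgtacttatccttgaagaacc
ANAC019 promoter: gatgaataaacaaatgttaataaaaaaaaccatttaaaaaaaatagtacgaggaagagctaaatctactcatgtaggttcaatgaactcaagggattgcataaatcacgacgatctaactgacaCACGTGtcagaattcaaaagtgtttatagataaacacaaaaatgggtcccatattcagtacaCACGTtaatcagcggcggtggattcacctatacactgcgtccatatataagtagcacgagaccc
ANAC032 promoter: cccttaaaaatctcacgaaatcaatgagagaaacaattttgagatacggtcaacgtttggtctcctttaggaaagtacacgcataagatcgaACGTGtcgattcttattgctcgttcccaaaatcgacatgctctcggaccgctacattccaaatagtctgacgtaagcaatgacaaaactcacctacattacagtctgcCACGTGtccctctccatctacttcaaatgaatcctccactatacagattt
NAP promoter: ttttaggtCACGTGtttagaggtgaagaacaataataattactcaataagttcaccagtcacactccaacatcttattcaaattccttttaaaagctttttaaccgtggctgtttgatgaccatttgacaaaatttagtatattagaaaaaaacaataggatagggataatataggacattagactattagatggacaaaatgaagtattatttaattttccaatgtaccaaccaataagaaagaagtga
VNI2 promoter: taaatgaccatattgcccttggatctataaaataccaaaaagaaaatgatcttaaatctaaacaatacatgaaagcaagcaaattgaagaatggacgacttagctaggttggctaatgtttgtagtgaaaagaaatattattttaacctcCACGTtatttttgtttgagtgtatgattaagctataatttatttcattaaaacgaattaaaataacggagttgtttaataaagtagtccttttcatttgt
ATAF2 promoter: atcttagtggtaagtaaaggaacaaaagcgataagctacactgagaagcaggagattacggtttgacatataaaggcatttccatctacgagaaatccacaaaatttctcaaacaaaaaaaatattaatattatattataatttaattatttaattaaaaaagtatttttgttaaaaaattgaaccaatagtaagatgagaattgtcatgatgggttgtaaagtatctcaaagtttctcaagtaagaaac

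The core was found in 5 of the 10 promoters, those of ANAC019, RD26, ANAC032, NAP and VNI2, while 22.9% of 27438 annotated promoters of the same length held it. ANAC019 and ANAC032 had 3 matches each, counted over both strands, against 2.99% of all promoters with 3 or more. The G-box CACGTG, which contains the core, stood in 3 promoters, those of ANAC019, ANAC032 and NAP, against 6.49% of all promoters. Counted from the gene start, the G-box began at -126 in ANAC019, at -50 in ANAC032 and at -242 in NAP. The promoters of ANAC055, ATAF1, ATAF2, ANAC102 and ORE1 held no ACGTG within 250 bases. On the averaged ABA effect described below, ANAC055, ATAF1 and ORE1 of these 5 were called higher, ATAF2 lower and ANAC102 neither. Of the 5 with the core, all but VNI2 were called higher. The drought-responsive element ACCGAC was found in none of the 10 (4.71% of all promoters), and neither was CATGTG, a NAC binding site (11.1%). TTNCGTA, a further NAC motif that was searched, was found in ANAC102 alone (9.73%). A match is a description of these letters, and binding was not measured.

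Over the 7 times, most of the NAC genes were higher after ABA and ATAF2 alone was lower. On the averaged ABA effect, the mean of the 7 differences, 7 of the 10 were called higher (23.9% of the 20034 genes tested were) and 1 was called lower (23.2% were). The test was limma with Benjamini-Hochberg adjustment over all genes tested and a threshold of 0.05. Its error is how far the 7 differences spread, and real change of the response enters it. The median averaged effect was 0.94 for the 10 NAC genes, against 0.00040 for all genes tested. The higher genes were RD26, ANAC019, ANAC055, ATAF1, ANAC032, NAP and ORE1, and the test called neither ANAC102 nor VNI2. All 10 passed the filter on low values, which asked for 1 FPKM in at least 2 pools, and each of them would have passed it on mock pools alone.

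**Figure D1:**
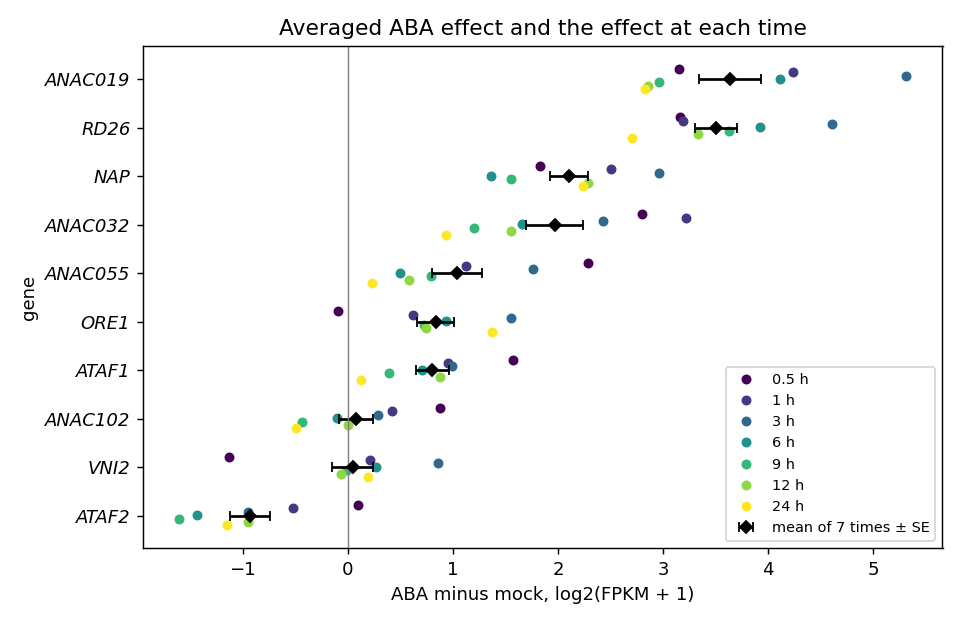
Averaged ABA effect of each of the 10 NAC genes (black diamonds, mean of 7 times ± SE of the limma fit) with the difference at each time (coloured points), in log2(FPKM + 1), ABA minus mock. ANAC019 and RD26 lie farthest right at 3.64 and 3.51, and ATAF2 lies left of 0 at -0.93.

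In the authors' deposited table, each time carries the authors' own call of significance, for which no test or threshold is named in the sources used. The counts below are set beside the shares called among the 14528 genes with a mean of at least 5 FPKM over the pools, a level that all 10 NAC genes reached. At 0.5 h the authors' deposited table called 7 of the 10 higher (11.0% of the 14528) and 1 lower (12.8%). At 1 h it called 8 higher (16.9%) and 1 lower (10.8%), and at 3 h again 8 higher (28.0%) and 1 lower (21.8%). The 6 h calls were 6 higher (26.0%) and 1 lower (22.3%), and the 9 h calls were 7 higher (19.5%) and 2 lower (20.0%). The 12 h calls were 7 higher (22.0%) and 1 lower (18.3%), and the 24 h calls were 5 higher (20.9%) and 2 lower (21.6%). The count of higher calls was above the share of all genes at every time, and the count of lower calls stayed at 1 or 2 of 10. The median difference of the 10 was 1.70, 1.04, 1.65, 0.82, 0.76, 0.81 and 0.58 in time order, while that of the 14528 genes lay between -0.03 and 0.06. Counting only the authors' calls with a difference of at least 1 in log2(FPKM + 1), 6 of the 10 were higher at 0.5 h (520 of the 14528 were). There were 5 at 1 h (872), 6 at 3 h (1709), 4 at 6 h (1383), 4 at 9 h (1066), 4 at 12 h (1129) and 4 at 24 h (873). That cut asks for more than 2-fold, most of all in genes with low levels.

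**Figure D2:**
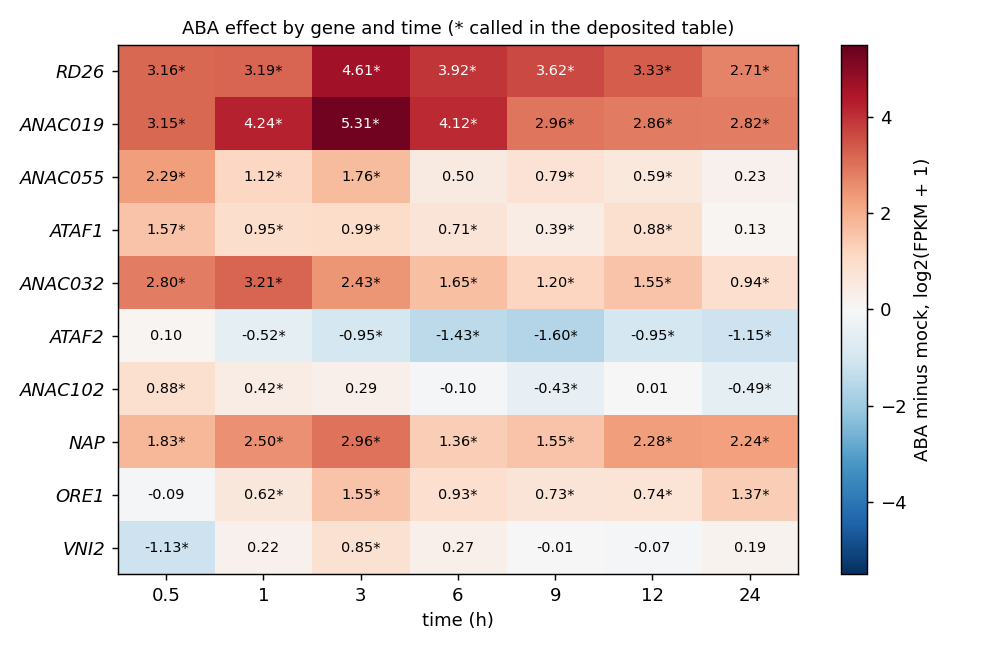
Difference between the ABA pool and the mock pool of each NAC gene (rows) at each time in hours (columns), in log2(FPKM + 1), with an asterisk where the authors' deposited table called it. RD26, ANAC019, ANAC032 and NAP are positive and called at all 7 times, and ATAF2 is negative and called from 1 h on.

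RD26 and ANAC019, activators of stress genes, showed the most marked responses among the 10. RD26 had 187, 324, 315, 224, 182, 162 and 116 FPKM in the ABA pools of 0.5, 1, 3, 6, 9, 12 and 24 h, against 20.1, 34.6, 11.9, 13.8, 13.9, 15.2 and 17.0 FPKM in the mock pools of those times. Every ABA pool stood above every mock pool, and the ratio was highest at 3 h (26.4-fold) and lowest at 24 h (6.86-fold). The averaged effect of RD26 was 3.51 ± 0.20 (SE, 7 differences, limma adjusted p = 9.35e-06). The single promoter match of RD26 begins at -100 from its annotated start, and 3 transcripts are annotated for it.

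ANAC019 had 9.52, 25.0, 59.6, 40.7, 25.6, 23.9 and 19.6 FPKM in the ABA pools in time order, against 0.185, 0.377, 0.525, 1.41, 2.42, 2.44 and 1.92 FPKM in the mock pools. The pools of the 2 treatments did not overlap, and the highest ABA level came at 3 h. Its mock level was the lowest of the 10 genes at 0.5 h, where it rested on about 8 fragments, so the ratio of 51.3 at that time is imprecise. With no pseudocount, the authors' deposited table gives log2 ratios for ANAC019 of 5.68 at 0.5 h, 6.83 at 3 h and 3.36 at 24 h. On the scale with a pseudocount the averaged effect was 3.64 ± 0.30 (limma adjusted p = 6.07e-05). It was 4.57 with a pseudocount of 0.1 and 2.31 with a pseudocount of 5, where RD26 had the higher value of the pair (3.24). ANAC019 was also the only one of the 10 with a called slope in mock pools, where it rose by 0.30 ± 0.05 per doubling of time (limma adjusted p = 0.00777), a slope that was 0.60 with a pseudocount of 0.1 and 0.10 with a pseudocount of 5.

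ANAC055, which shares 76.1% of aligned residues with ANAC019, had its highest values early and a lower averaged effect. It had 21.6, 24.4, 9.94, 5.52, 7.34, 6.29 and 4.27 FPKM in the ABA pools, against 3.64, 10.7, 2.23, 3.63, 3.83, 3.86 and 3.48 FPKM in the mock pools. Mock pools also showed a high value at 1 h, which is above the ABA values from 3 h on, so the ranges overlapped. The averaged effect was 1.04 ± 0.24 (limma adjusted p = 0.00710), or 0.69 with a pseudocount of 5, and the authors' deposited table did not call ANAC055 at 6 and 24 h. No ACGTG stood in its 250 bases, unlike those of ANAC019 and RD26. Summed over the 3 relatives, ABA pools held 218, 373, 384, 270, 215, 193 and 140 FPKM, against 23.9, 45.7, 14.7, 18.9, 20.1, 21.5 and 22.4 FPKM in mock pools. RD26 made up 81.9% to 86.7% of that sum in ABA pools and 68.9% to 84.0% in mock pools.

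**Figure D3:**
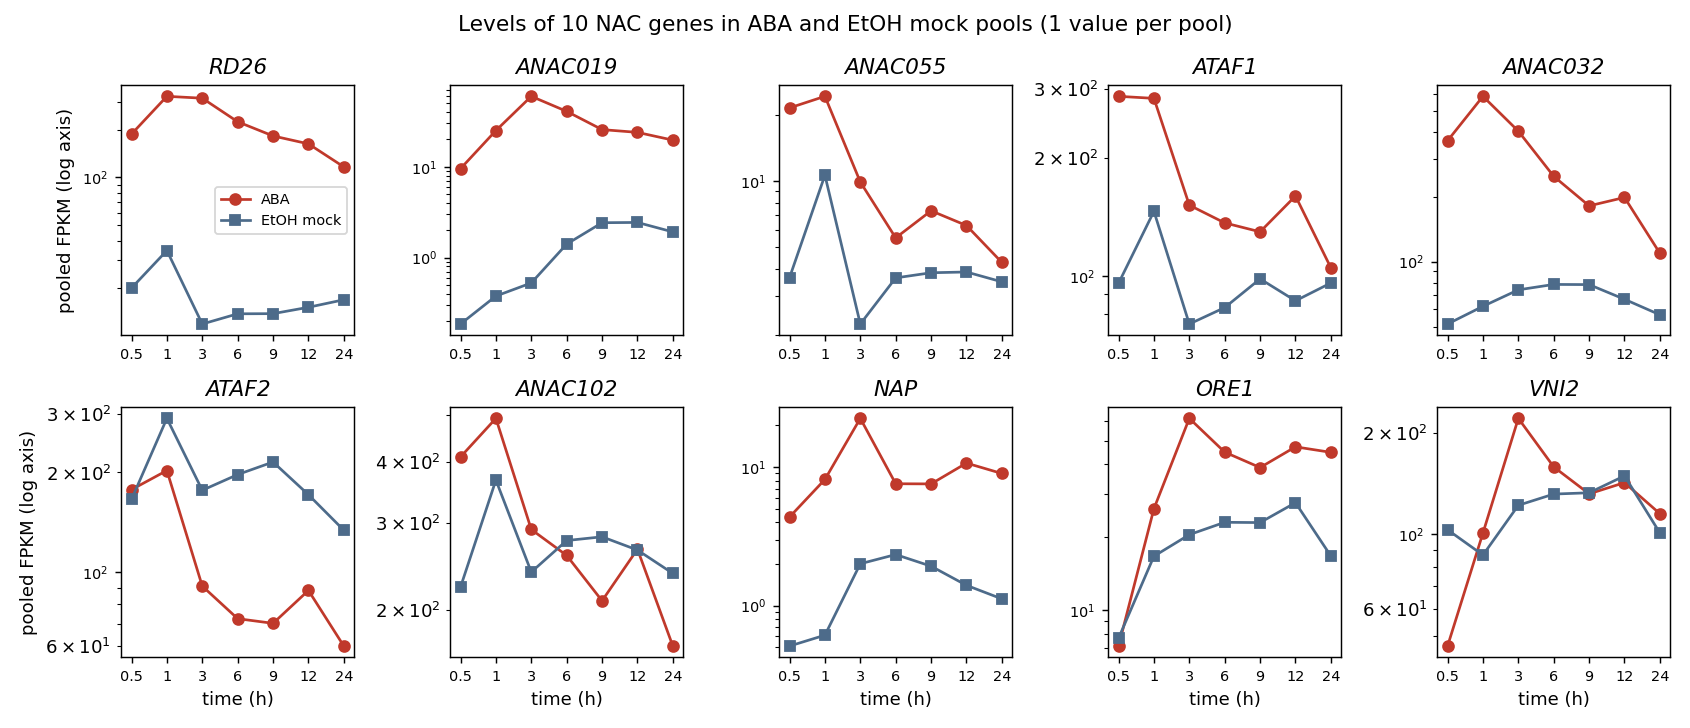
Pooled FPKM (log axis, a separate range for each gene) of the 10 NAC genes at 7 times, evenly spaced, in ABA pools (circles) and EtOH mock pools (squares), 1 value per pool. The lines do not cross for RD26, ANAC019, ANAC055, ATAF1, ANAC032 and NAP, and they cross for ATAF2, ANAC102, ORE1 and VNI2.

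The 4 genes of the ATAF group, whose proteins act in stress, defence and hormone metabolism, did not move alike. ANAC032 had 364, 584, 403, 249, 181, 198 and 109 FPKM in the ABA pools, against 51.4, 62.0, 74.0, 78.4, 78.2, 66.9 and 56.7 FPKM in the mock pools. Its ABA pools all stood above its mock pools, by 9.42-fold at 1 h and by 1.93-fold at 24 h. The averaged effect was 1.97 ± 0.27 (limma adjusted p = 0.000735). ATAF1, its nearest relative of the 4 with 75.8% of aligned residues identical, had 287, 284, 152, 137, 130, 160 and 105 FPKM in the ABA pools, against 96.0, 146, 75.6, 83.3, 98.5, 86.7 and 96.2 FPKM in the mock pools. ATAF1 was higher after ABA at every time, by 2.99-fold at 0.5 h and by 1.09-fold at 24 h, where the authors' deposited table did not call it. Its averaged effect was 0.80 ± 0.16 (limma adjusted p = 0.00350).

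ATAF2, a factor in defence and brassinosteroid metabolism, was lower after ABA. It had 178, 203, 90.9, 72.5, 70.2, 88.2 and 59.9 FPKM in the ABA pools, against 166, 291, 177, 197, 215, 171 and 134 FPKM in the mock pools. The 0.5 h pools were nearly equal, and from 1 h on each ABA pool was below the mock pool of its time, down to 0.326 of it at 9 h. The authors' deposited table called ATAF2 lower at the 6 times from 1 to 24 h. Over all 7 times the averaged effect was -0.93 ± 0.19 (limma adjusted p = 0.00421). ANAC102, whose protein shares 86.6% of aligned residues with ATAF2, had 410, 491, 292, 258, 209, 266 and 169 FPKM in ABA pools, against 223, 368, 239, 277, 282, 265 and 237 FPKM in mock pools. In the authors' deposited table ANAC102 was called higher at 0.5 and 1 h and lower at 9 and 24 h, and its averaged effect was 0.08 ± 0.16 (limma adjusted p = 0.704). Without the 0.5 h pools that average was -0.05.

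The make-up of the group's messages differed between ABA and mock pools. ANAC032 made up 29.4%, 37.4%, 43.0%, 34.7%, 30.7%, 27.8% and 24.7% of the summed FPKM of the 4 genes in ABA pools, against 9.58%, 7.16%, 13.1%, 12.3%, 11.6%, 11.3% and 10.8% in mock pools. ATAF2 made up 9.70% to 14.3% of it in ABA pools and 25.6% to 33.6% in mock pools. Neither pair of ranges overlapped. The sum itself was 2.31 times the mock sum at 0.5 h, 1.80 times at 1 h and 1.66 times at 3 h, and 0.876 and 0.846 times at 9 and 24 h. Summed over all 10 genes the ratio of ABA to mock was 2.26 at 0.5 h, 2.04 at 1 h, 2.25 at 3 h and 1.13 at 24 h. Reads from the opposite strand may enter 3 of these values, since strand use in the counting is not stated. ATAF1 overlaps AT1G01725 over 28 bases and AT1G04043, a long noncoding RNA that is not analysed here, over 344 bases. ATAF2 overlaps AT5G08780 over 158 bases, and that gene had 1.72 to 4.46 FPKM. ANAC102 overlaps AT5G63780 over 85 bases, and that gene had 14.6 to 46.3 FPKM.

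**Figure D4:**
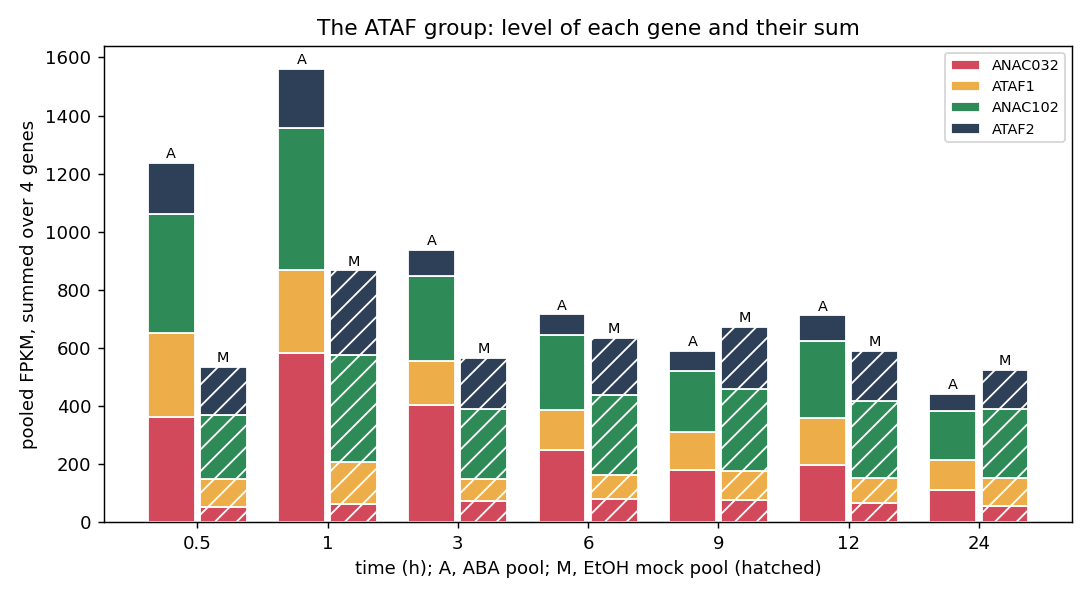
Pooled FPKM of ANAC032, ATAF1, ANAC102 and ATAF2 stacked at each time in hours, with the ABA pool (A, plain) left of the mock pool (M, hatched). The ANAC032 block is larger and the ATAF2 block smaller in ABA pools than in mock pools from 1 h on, while the total is above the mock total at 0.5, 1, 3, 6 and 12 h and below it at 9 and 24 h.

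NAP, an activator of leaf senescence and of ABA synthesis, was low in mock pools and higher after ABA at every time. It had 4.36, 8.14, 22.5, 7.58, 7.56, 10.7 and 8.99 FPKM in the ABA pools, against 0.511, 0.612, 2.01, 2.34, 1.93, 1.40 and 1.12 FPKM in the mock pools. The pools did not overlap, and the NAP ratio was 13.3 at 1 h, 3.24 at 6 h and 8.03 at 24 h. About 20 fragments stood behind the mock value at 0.5 h. The averaged effect was 2.104 ± 0.183 (limma adjusted p = 8.20e-05), and it was 2.73 with a pseudocount of 0.1 and 1.16 with a pseudocount of 5.

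ORE1, which drives chlorophyll breakdown and cell death in ageing leaves, was called higher from 1 h on in the authors' deposited table. It had 7.10, 26.2, 61.8, 44.8, 38.7, 47.1 and 44.7 FPKM in the ABA pools, against 7.65, 16.7, 20.5, 23.0, 23.0, 27.7 and 16.7 FPKM in the mock pools. The 0.5 h pools were nearly equal, and the ABA pools from 3 h on all stood above every mock pool. Its averaged effect was 0.84 ± 0.18 (limma adjusted p = 0.00500), and a fit with no time factor did not call it (adjusted p = 0.111). Mock pools also differed among themselves, with 7.65 FPKM at 0.5 h and 27.7 FPKM at 12 h, and their slope was called only without the 24 h pool (0.31 per doubling of time, limma adjusted p = 0.00560, against 0.0750 with it).

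VNI2 showed opposite differences at 2 times. It had 46.5, 101, 221, 159, 132, 143 and 115 FPKM in the ABA pools, against 103, 86.8, 122, 132, 133, 149 and 101 FPKM in the mock pools. The authors' deposited table called VNI2 lower at 0.5 h (0.451 of mock) and higher at 3 h (1.81-fold), and made no call at the other 5 times. VNI2 overlaps AT5G00390, a noncoding RNA on the opposite strand that is not analysed here, over 306 bases, and strand use in the counting is not stated. Its averaged effect was 0.04 ± 0.19 (limma adjusted p = 0.863). The VNI2 promoter holds the ACGTG core, as do those of RD26, ANAC019, ANAC032 and NAP. The sign of that average was negative with pools scaled to the same median (-0.02) and without the 3 h pools (-0.09). The highest ABA value of VNI2 fell at 3 h, as for NAP, ORE1 and ANAC019, while ATAF1 was highest at 0.5 h and RD26, ANAC055, ATAF2, ANAC032 and ANAC102 were highest at 1 h.

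Whether the ABA effect grew or shrank along the course was tested as a slope of the 7 differences on log2 hours. No NAC gene was called as rising (1.99% of all genes tested were), none of them having risen with an unadjusted p under 0.05, and 3 of the 10 were called as falling (3.22% were). The slope was -0.40 ± 0.06 per doubling of time for ANAC032 (limma adjusted p = 0.0171), -0.32 ± 0.07 for ANAC055 (0.0463) and -0.23 ± 0.04 for ANAC102 (0.0315). Without the 1 h pools none of the 3 was called, with slopes of -0.35 for ANAC032 (limma adjusted p = 0.0718), -0.39 for ANAC055 (0.0682) and -0.24 for ANAC102 (0.0987), and 61 genes in all were called as falling, against 645 with those pools. ANAC032 was called without each of the other 6 times. ANAC055 was not called without the 0.5, 6, 9, 12 or 24 h pools either (0.0679 to 0.216), nor ANAC102 without the 0.5, 6, 9 or 24 h pools (0.0506 to 0.131). ANAC055 was also not called with a pseudocount of 0.1 (limma adjusted p = 0.0612), with no filter on low values (0.0809) or on the rank of time (0.0624), where ANAC102 was not called either (0.0589). The slopes were -0.20 ± 0.05 for ATAF1 (0.0564), -0.23 ± 0.07 for ATAF2 (0.0795) and 0.17 ± 0.08 for ORE1 (0.232), none of them called. Those of RD26, ANAC019, NAP and VNI2 lay between -0.18 and 0.13 and were not called. The slope of ANAC019 was -0.18, and it was -0.46 without the 0.5 h pools and -0.47 with a pseudocount of 0.1, not called in either (limma adjusted p = 0.165 and 0.127). That of ORE1 was 0.058 without the 0.5 h pools.

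In the mock pools alone, 1 NAC gene was called as rising over time (14% of all genes tested were) and none as falling (14.9% were), by limma on the slope over 7 pools. That gene was ANAC019, and 1 NAC gene had an unadjusted p under 0.05 beside it, ORE1 (0.0264), while none fell with an unadjusted p under 0.05. Without the 24 h pool 4 were called as rising, with NAP (adjusted p = 0.0329), VNI2 (0.0165) and ORE1 (0.00560) added, and 4039 of the 20034 genes were then called as rising, against 2807 with it. ANAC055, ATAF1, ATAF2, RD26 and ANAC102 all had their highest mock value at 1 h.

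ORE1 is known as a target of the microRNA miR164, so its site is shown with those of other NAC messages that share it. The mature forms were read from their loci in TAIR10.1, with the seed, bases 2 to 8, in capitals.
miR164a: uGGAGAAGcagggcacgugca
miR164b-5p: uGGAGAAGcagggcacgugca
miR164c-5p: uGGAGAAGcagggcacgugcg
The 3 share 1 seed and miR164c-5p differs from the others at its last base. The best match of the reverse complement of miR164a in each message is given below in 21 bases of coding sequence, 5′ to 3′, with capitals at each base that differs.
ORE1: CTcacgtgAcctgcttctccG
NAC1: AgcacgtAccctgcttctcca
ANAC079: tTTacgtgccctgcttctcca
ANAC100: tCTacgtgccctgcttctcca
CUC1: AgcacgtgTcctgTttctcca
CUC2: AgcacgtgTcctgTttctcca
The ORE1 site lies in exon 3 at chr5:15858797-15858817 (TAIR10.1, minus strand) and has 4 mismatches, T1C, G2T, C9A and A21G, where the first base is that of the reverse complement, positions are counted from 1 at its 5′ end and the last base is that of the site. NAC1, ANAC079 and ANAC100 have 2 mismatches each, and CUC1 and CUC2 have 3. The best windows of the other 9 NAC genes described here had 8 to 10 mismatches. Levels of the microRNAs were not analysed here.

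Among these other miR164 targets, ANAC079 and ANAC100 were called higher at all 7 times in the authors' deposited table, NAC1 at 3 h alone, and CUC1 and CUC2 at none. On the averaged effect 2 of the 5 were higher (23.9% of all genes tested were) and 1, CUC2, was lower (23.2% were). CUC2 lay near the floor, with 0.463 to 0.743 FPKM in ABA pools and 0.542 to 1.33 FPKM in mock pools (-0.28 ± 0.10, limma adjusted p = 0.0439). ANAC079 had 9.12 to 20.8 FPKM in ABA pools and 3.45 to 7.38 FPKM in mock pools, with an averaged effect of 1.18 ± 0.09 (limma adjusted p = 3.73e-05). NAC1, a factor in lateral root formation, had an averaged effect of 0.22 ± 0.11 (limma adjusted p = 0.127). At 0.5 h ANAC079 was called higher and ORE1 was not, and the difference between the genes was not tested.

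Of the other 105 NAC domain genes, 66 passed the filter on low values, 26 had a mean of at least 5 FPKM and 13 were listed at 0 in all pools. Among the 26, the authors' deposited table called 8, 8, 15, 8, 6, 4 and 5 higher and 7, 5, 4, 5, 3, 5 and 4 lower in time order. Of the 14528 genes at that level, 11.0%, 16.9%, 28.0%, 26.0%, 19.5%, 22.0% and 20.9% were called higher in time order. The shares called lower were 12.8%, 10.8%, 21.8%, 22.3%, 20.0%, 18.3% and 21.6%. The median difference of the 26 NAC genes lay between -0.04 and 0.45. A list held 14 other stress and senescence NAC genes, of which 13 could be tested. On the averaged effect 4 were higher (23.9% of all genes tested were) and 2 were lower (23.2% were). ANAC087, a factor of programmed cell death in the root cap, had 14.1 to 36.3 FPKM in ABA pools and 5.21 to 8.05 FPKM in mock pools (1.56 ± 0.15, limma adjusted p = 0.000115). ANAC047, a factor in leaf movement under flooding, had an averaged effect of 1.02 ± 0.16 (limma adjusted p = 0.00130). ORS1, the closest relative of ORE1, moved the other way, with 4.18 to 8.59 FPKM in ABA pools and 7.28 to 12.3 FPKM in mock pools (-0.52 ± 0.11, limma adjusted p = 0.00464).

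Regulators known to act on these NAC genes were counted next, on an averaged effect that called 23.9% of all genes tested higher and 23.2% lower. Of 6 bZIP factors that bind the ABA-responsive element, 5 were higher on the averaged effect and none was lower. ABF3 had 70.6 to 153 FPKM in ABA pools and 18.0 to 25.3 FPKM in mock pools (2.09 ± 0.17, limma adjusted p = 5.45e-05), and ABF2 and ABF4 had averaged effects of 1.85 ± 0.12 and 0.95 ± 0.07. Of 9 ethylene, light and jasmonate regulators, 6 were higher and 1 was lower. PIF4, a light-signalling factor that acts upstream of ORE1 in the dark, had 15.7 to 30.9 FPKM in ABA pools and 3.51 to 17.9 FPKM in mock pools (1.45 ± 0.16, limma adjusted p = 0.000243). PIF3, of the same family, had an averaged effect of 1.05 ± 0.14 (limma adjusted p = 0.000539). MYC2, the jasmonate factor upstream of ANAC019, ANAC055 and RD26, had 134 and 78.4 FPKM in the ABA pools of 0.5 and 1 h, against 23.8 and 32.5 FPKM in the mock pools. From 3 h on MYC2 had 16.6 to 20.8 FPKM in ABA pools and 15.0 to 16.9 FPKM in mock pools, and its averaged effect was 0.69 ± 0.27 (limma adjusted p = 0.0643). Of 5 genes for protein partners and ubiquitin ligases, 3 were higher and 2 lower. They included SCL14, a partner in detoxification responses (0.43 ± 0.07, limma adjusted p = 0.00149), and the ubiquitin ligase genes NLA (-0.53 ± 0.08, 0.000950) and RHA2A (-0.50 ± 0.12, 0.00737).

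Genes reported as targets of the NAC factors were taken as lists, with membership from general knowledge and not from these libraries. Whether a factor is reported to raise or to lower each target was not recorded, so the counts below may mix both kinds. Of all genes tested, 23.9% were higher and 23.2% lower on the averaged effect. All 6 listed targets of VNI2 were called higher at all 7 times in the authors' deposited table and on the averaged effect. RD29B, a drought-induced gene for a hydrophilic protein, had 65.7 to 922 FPKM in ABA pools and 0.411 to 3.98 FPKM in mock pools (7.26 ± 0.58, limma adjusted p = 5.59e-05). COR15A and KIN1, cold and drought genes, had averaged effects of 6.24 ± 0.69 and 5.22 ± 0.73. VNI2 itself was below mock at 0.5 h, when these 6 genes had a median difference of 2.49. The part of VNI2 in their levels was not tested. The list also holds classic ABA-responsive genes that other factors control.

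Of 7 listed targets of ORE1, 5 were higher on the averaged effect (23.9% of all genes tested were) and none was lower (23.2% were). SAG29, a sugar transporter, had 17.2, 43.6, 879, 656, 380, 338 and 318 FPKM in ABA pools, against 2.68 to 7.82 FPKM in mock pools (5.20 ± 0.73, limma adjusted p = 0.000839). BFN1, a nuclease, and PAO, which opens the chlorophyll ring, had averaged effects of 2.34 ± 0.33 and 1.71 ± 0.34. SAG29, BFN1 and ORE1 all had their highest ABA value at 3 h, and PAO had it at 6 h. PAO was not called at 0.5 and 1 h in the authors' deposited table, while ORE1 was called at 1 h. At 0.5 h, when ORE1 was not called, 4 of the 7 listed targets were called higher (11.0% of the 14528 genes) and 1 lower (12.8%). SAG29 and BFN1 were among those higher at 0.5 h. The part of ORE1 in the levels of its listed targets was not tested. Both listed targets of NAP were higher. SAG113, a phosphatase that restrains ABA signalling, had 90.3 to 292 FPKM in ABA pools and 0.692 to 1.91 FPKM in mock pools (6.25 ± 0.27, limma adjusted p = 2.59e-06). AAO3, an ABA synthesis gene, had 6.26 to 21.5 FPKM in ABA pools and 5.16 to 8.13 FPKM in mock pools (0.93 ± 0.16, limma adjusted p = 0.00195).

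Of the listed targets of RD26, ANAC019 and ANAC055, 2 of 5 tested genes were higher (23.9% of all genes tested were) and 1 was lower (23.2% were). VSP1, a jasmonate-responsive storage protein gene, was higher (1.51 ± 0.18, limma adjusted p = 0.000343), as was ERD1, a protease subunit gene (0.84 ± 0.17, 0.00413). ICS1, a salicylic acid synthesis gene, had 3.42 to 5.73 FPKM in ABA pools and 5.69 to 55.8 FPKM in mock pools (-1.44 ± 0.42, limma adjusted p = 0.0210). The mock values of ICS1 were highest at 9 and 12 h, with 55.8 and 43.9 FPKM. Of 10 listed targets of ATAF1, ATAF2 and ANAC032, 3 were higher and 3 lower, close to the 23.9% and 23.2% of all genes tested. NCED3, the rate-limiting gene of ABA synthesis and a reported target of ATAF1, had 8.37 to 23.7 FPKM in ABA pools and 0.341 to 0.951 FPKM in mock pools (3.34 ± 0.13, limma adjusted p = 1.30e-06). TT8, an anthocyanin regulator, and NIT2, a nitrilase of auxin metabolism, had averaged effects of 1.62 ± 0.31 and 1.31 ± 0.35. The 3 lower ones were MYBL2 (-0.49 ± 0.17, limma adjusted p = 0.0410), TRE1 (-0.28 ± 0.10, 0.0432) and ABCG40 (-0.82 ± 0.29, 0.0413).

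Leaf senescence markers were checked beside them. Of 8 such genes, 7 could be tested. On the averaged effect 4 were higher (23.9% of all genes tested were) and 1 was lower (23.2% were). WRKY75 (0.97 ± 0.14), PPH, a chlorophyll breakdown gene (0.91 ± 0.20), and WRKY6 (0.69 ± 0.17) were among those higher. WRKY53 was the lower one (-0.84 ± 0.23, limma adjusted p = 0.0153). It had 0.647 to 3.35 FPKM in ABA pools and 2.45 to 5.20 FPKM in mock pools. SAG12, the marker of late senescence, was listed at 0 in all 7 ABA pools and in 6 of 7 mock pools. The summed level of the 8 genes was 1222 to 1996 FPKM in ABA pools and 869 to 1324 FPKM in mock pools. SAG21, named after its values were seen, made up most of that sum, with 1078 to 1840 FPKM in ABA pools and 781 to 1243 FPKM in mock pools.

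**Figure D5:**
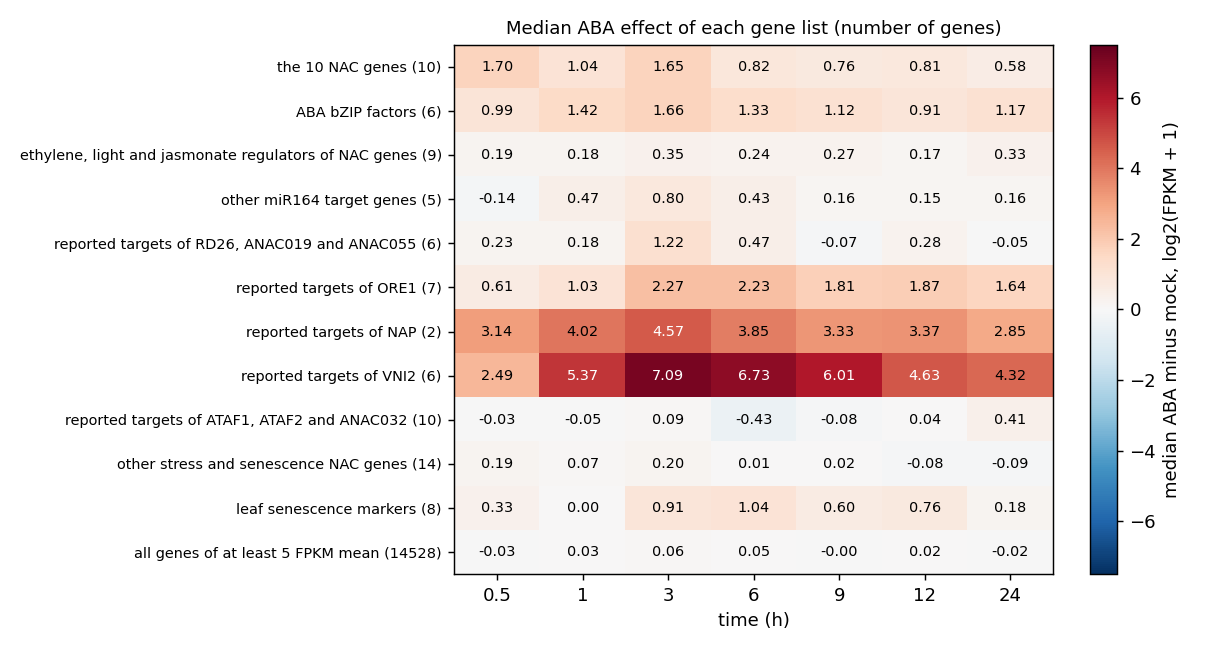
Median difference between ABA and mock pools in log2(FPKM + 1) for each gene list (rows, with its number of genes) at each time in hours (columns). The 10 NAC genes lie between 0.58 and 1.70, listed targets of VNI2 between 2.49 and 7.09, and all genes of at least 5 FPKM mean near 0.

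The courses of the 10 genes were compared by Pearson correlation of log2(FPKM + 1) over the 14 pools, as a description only, since all pools share the ABA contrast. The most alike pairs were ANAC055 with ATAF1 (r = 0.97), ANAC019 with NAP (0.95) and ANAC019 with RD26 (0.91). ANAC019 and ANAC055, close in sequence, had r = 0.48, and ATAF2 and ANAC102 had r = 0.62. ORE1 and VNI2 had r = 0.80, and ATAF2 ran against ANAC019 (r = -0.73). Among 14518 other genes with a mean of at least 5 FPKM, AT4G33467 (0.99) and AT2G41475 (0.99) were most like RD26, and AT1G73740 (0.99) and AT2G22590 (0.99) most like ANAC019. MAPKKK18, a kinase gene of ABA signalling (0.98), and GXMT1, an enzyme of xylan methylation (0.97), were most like ANAC032. SSP4b (0.96) was the gene most like both ANAC055 and ATAF1, followed by SSP4 (0.96) for ANAC055 and AT1G64470 (0.96) for ATAF1. NAP was most like ECT8 (0.97) and UGT89B1 (0.97), and ORE1 most like AT5G03490 (0.97) and AT2G26920 (0.97). The nearest genes were SNM1 (0.96) and GK-1 (0.95) for ATAF2, AT4G30350 (0.92) and AT3G60520 (0.91) for ANAC102, and GC2 (0.93) and AT1G68880 (0.92) for VNI2.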

How the data were processed

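Libraries of seedling RNA were checked with FastQC and aligned with STAR to TAIR10, per the submitters' processing notes. No quantifier, no test of the authors and no way of combining libraries is named in the sources used. The deposited table holds FPKM values made by the authors, with 1 value per gene and group of 2 libraries, together with the authors' log2 ratios and yes/no calls. The FPKM unit was inferred from the values, and implied fragments per pool from the step between low values, so depths are approximate. The tests at each time are the authors' calls. Other tests used limma 3.58.1 with a trend (R 4.3.3) on log2(FPKM + 1). The filter kept 20034 genes that reached 1 FPKM in 2 or more pools, with Benjamini-Hochberg adjustment and a threshold of 0.05. The averaged effect had time as a factor (6 residual degrees of freedom), and the slopes on log2 hours had 5. All fits take the times as independent, which makes p-values too small if adjacent times resemble each other. The fits were also run on simulated data, but its pools were drawn independently, so that run cannot show what such resemblance does.

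The NAC genes, the 14 lists (87 genes) and the tests were chosen with earlier results of these data known. All 10 NAC genes are named, up to 3 genes with the largest mean effect of each list among those with a mean of at least 5 FPKM, and for each NAC gene the 2 other genes with the highest correlation. ABI5 and other list genes under 5 FPKM were counted only, except ANAC100, CUC1, CUC2, SAG12, SESA1, NRT2.1, TRE1, ABCG40 and WRKY53, named as members of a counted set. TRE1, ABCG40, WRKY53 and MYBL2 were named, as list genes called lower, after their values were seen. Sequences and gene models come from the RefSeq TAIR10.1 genome and annotation, and protein identities from Biopython 1.88 alignments of its translated coding sequences. Words of 50 bases found no sequence shared with another gene's transcripts for ANAC019, ANAC055, RD26, ANAC032, NAP and ORE1. None was found for VNI2 either, although its gene overlaps AT5G00390. The share of words found elsewhere was 18.4% for ATAF1, 7.36% for ATAF2 and 2.34% for ANAC102. Alternatives were the pseudocount, the filter, scaling, transcript length, the time scale and leaving out each time.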

Additional observations from a re-analysis of the deposited data

Results flagged for a closer look

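The ABA effect of 3 genes differed between early and late times by a test of the slope on log2 hours, with a threshold of 0.05 on the adjusted p of limma. The slope was -0.40 for ANAC032, -0.32 for ANAC055 and -0.23 for ANAC102, in log2(FPKM + 1) per doubling of time. ANAC032 stood 2.80 above mock at 0.5 h, 3.21 at 1 h and 0.94 at 24 h. ANAC055 stood 2.29 above mock at 0.5 h and 0.23 at 24 h. The difference for ANAC102 was 0.88 at 0.5 h and -0.49 at 24 h. Without the 1 h pools none of the 3 slopes was called (limma adjusted p = 0.0718, 0.0682 and 0.0987), and that of ANAC055 was not called with a pseudocount of 0.1 (0.0612) or with no filter (0.0809) either. No replicate spread stands behind any of these pools.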

How the results depend on the processing

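The counts of NAC genes called on the averaged ABA effect, 7 higher and 1 lower, were the same without each time in turn and under the other pseudocounts, no filter, scaling and removal of the length trend. With no time factor 6 were higher and 1 lower, and ORE1 was the gene not called (adjusted p = 0.111). VNI2 had a negative average with scaled pools (-0.023) and without 3 h (-0.090), and ANAC102 without 0.5 h (-0.052). Without each time in turn their averages reached 0.24 for VNI2 and 0.18 for ANAC102. The count of NAC genes with a falling slope ranged from 0 to 3 without each time in turn and was 1 with the rank of time, where the slope of ANAC032 alone was called, and 2 with a pseudocount of 0.1 or with no filter, where ANAC055 was not called. Slopes changed sign for NAP (0.018 with a pseudocount of 5 and 0.0098 without 1 h), VNI2 (-0.085 without 0.5 h) and RD26 (0.097 without 24 h). The opposite ends of their ranges without each time were -0.14 for NAP, 0.19 for VNI2 and -0.15 for RD26. Over all genes, 207 slopes rose and 283 fell with no filter, 178 rose and 279 fell with the rank of time, and without each time in turn 22 to 658 rose and 61 to 754 fell, against 399 and 645. In mock pools the rank of time gave 1765 rising and 1892 falling genes, and leaving out each time 975 to 4039 rising and 1184 to 4440 falling, against 2807 and 2990. The NAC genes rising in mock numbered 1 to 4. Mock slopes changed sign without 0.5 h for ANAC032 (-0.016), without 1 h for ANAC055 (0.024), ATAF1 (0.0059) and ANAC102 (0.037), and without 24 h for ANAC102 (0.0052). The opposite ends were 0.10 for ANAC032, -0.22 for ANAC055, -0.10 for ATAF1 and -0.10 for ANAC102. The cause of these changes was not tested. Keeping only the authors' calls with a difference of at least 1 in log2(FPKM + 1) left 5 NAC genes higher and 0 lower at 1 h (872 and 388 of the 14528 genes). That cut left 0 lower at 3 h (927) and 4 higher and 1 lower at 9 h (1066 and 693). At 12 h it left 4 higher and 0 lower (1129 and 695), and at 24 h 1 lower (793). No paired analysis was possible because the pooled columns carry no replicate number, so libraries could not be paired, and the averaged effect pairs pools by time only. Mock values of ANAC019 and NAP at 0.5 and 1 h rest on about 8 to 25 fragments.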
